A study of Mus musculus with 10 samples.

Results

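The genes described here are 10 transcription factors that set the identity of the lung epithelium: Nkx2-1, Foxa1, Foxa2, Foxp1, Foxp2, Foxp4, Gata6, Sox9, Sox2 and Cebpa. They were taken by name, each through the probe set annotated to that symbol alone, and all 10 had a probe set, of 17919 genes measured in all. Each had a single probe set, so no choice between probe sets was needed. In all 10 lungs every one of them lay above 6.11, the 20th percentile of all values on the log2 scale of the arrays.

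These factors act at successive steps of lung formation. NKX2-1 is the homeodomain factor that marks the respiratory endoderm and later drives surfactant and secretoglobin genes. FOXA1 and FOXA2 are related forkhead pioneer factors with overlapping roles in branching and in secretory and alveolar differentiation, and GATA6 works with them in distal epithelial maturation. SOX2 marks the proximal, airway-forming epithelium and SOX9 the distal tips. FOXP1, FOXP2 and FOXP4 are forkhead repressors that restrain alternative airway fates, and C/EBP alpha promotes late maturation of the surfactant-producing alveolar type 2 (AT2) cell.

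Mouse lungs were taken whole at E18.5, shortly before birth, and profiled with 1 array per lung on a mixed background of C57BL/6 and 129X1,129S6. The control group held 5 lungs labelled Shhcre and control, and the knockout group 5 lungs labelled Shhcre:Hdac3fl/fl. Hdac3 encodes a histone deacetylase, and the Shh-Cre allele expresses Cre recombinase where Shh is active, in the lung mainly the epithelium. Dams were Hdac3 fl/fl and sires carried Hdac3 fl/+ with ShhCre, so a Cre-positive control from this cross would have a floxed allele too; the control label states no Hdac3 allele. Epithelial, mesenchymal, endothelial and blood cells all contribute to a value from whole lung, and fewer cells of a type cannot be told apart from less RNA per cell. The labels call the lungs biological replicates.

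Sample medians ran from 7.43 to 7.46. The processing notes name RMA, which makes the arrays alike, so near-equal medians are no check of the lungs. Hdac3 itself was lower by a log2 difference of -0.31 ± 0.07 (SE), with every knockout lung (10.34 to 10.61) below every control lung (10.67 to 10.90; limma adjusted p = 0.0203). The lung epithelium was well represented: Sftpc, the AT2 surfactant gene, lay between 13.39 and 13.49 in all lungs, Scgb1a1, of club cells, between 12.15 and 12.66, and Ager, of alveolar type 1 (AT1) cells, between 12.20 and 12.40. Of all genes, 559 differed between the groups, which is 3.12%. Below, a change is the knockout mean minus the control mean on the log2 scale, and a gene is said to rise or fall where its limma p, adjusted over all genes, is under 0.05.

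Of the 10 factors, 1 fell and 0 rose, and 4 had an unadjusted limma p under 0.05, as did 13.5% of all genes. Foxa1 was the one that fell, against a background of 1.58% of all genes called lower and 1.54% called higher. With the replicate number of the labels as a block, which 846 genes (4.72%) passed, Sox2 fell as well, so that 2 of 10 factors were lower and 0 higher; in that fit 2.44% of all genes were called lower and 2.28% higher. The median change of the 10 factors was -0.01, beside 0.00 over all genes. The groups did not overlap for Sox2 and Foxa2, that is for 2 of 10 factors, where 5.11% of all genes had groups that did not overlap (2.66% lower and 2.44% higher in the knockout).

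**Figure D1:**
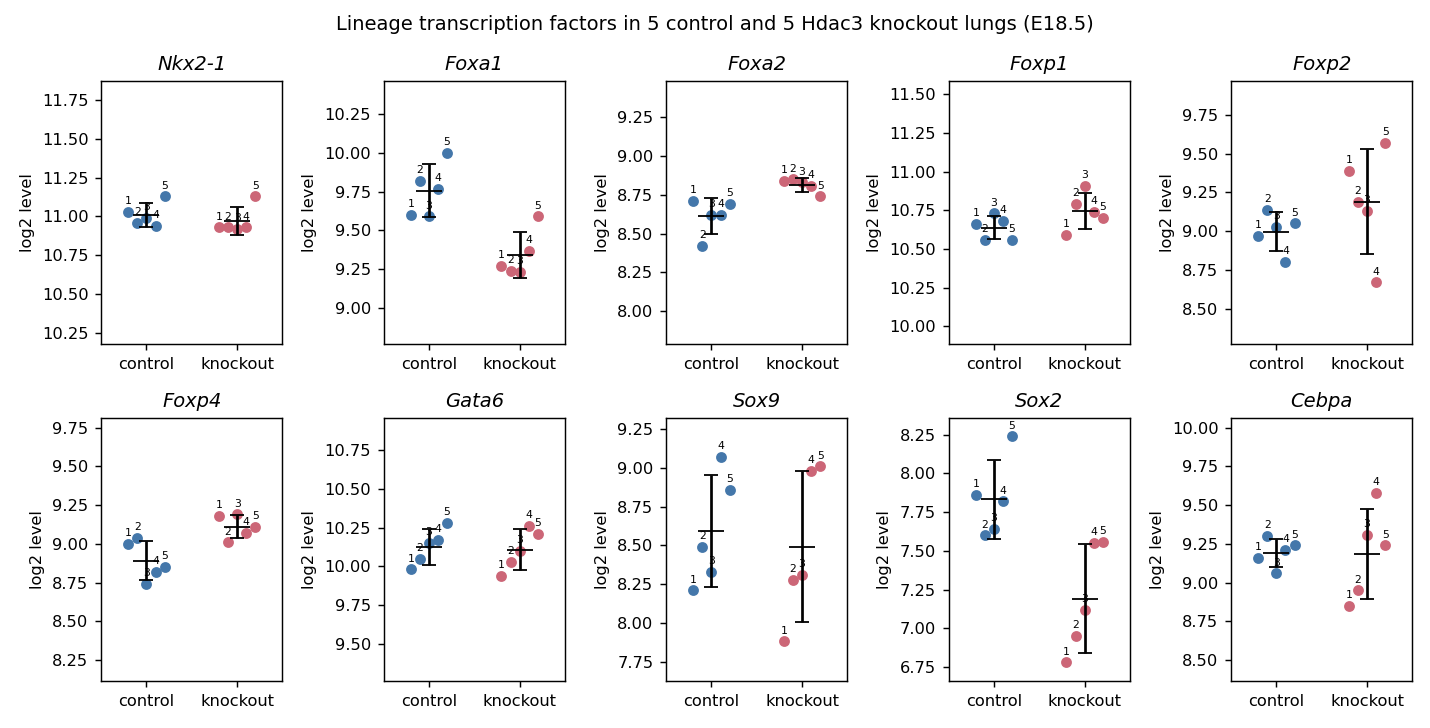
Log2 level of each of the 10 factors in every lung (points, numbered by replicate) for 5 control and 5 knockout lungs, with the group mean and SD as bars; every panel spans the same log2 range, centred on its gene. Sox2 in knockout lungs (6.78 to 7.56) lies below all control lungs (7.60 to 8.24), Foxa1 overlaps only at its edge, and Sox9 is spread widely in both groups.

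Foxa1, the forkhead pioneer factor, was 9.60, 9.82, 9.59, 9.77 and 10.004 in control lungs 1 to 5 and 9.27, 9.24, 9.23, 9.37 and 9.59 in knockout lungs 1 to 5. The groups met only at their edges, where knockout 5 reached the level of control 3. The control mean was 9.76 ± 0.17 and the knockout mean 9.34 ± 0.15 (SD, n = 5 per group), a change of -0.42 ± 0.09 (SE), or 74.9% of the control level (limma adjusted p = 0.0276). Foxa1 was lower in 5 of 5 same-numbered pairs, by differences from -0.58 to -0.33. With the replicate block the adjusted p of limma was 0.0031. Without the block the call was lost when control 2, 4 or 5, or knockout 1, 2, 3 or 4 was left out (adjusted p from 0.0533 to 0.0765), while with the block it held whichever pair was left out (0.0103 to 0.0167). The call was also lost with values floored at the 20th percentile (limma adjusted p = 0.0742), although no Foxa1 value lies under that floor. Its change stayed at -0.42, so only the spread and adjustment that limma takes over all genes differed.

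Foxa2, its closest relative in the list, did not move the same way. Its levels were 8.71, 8.42, 8.62, 8.62 and 8.69 in control lungs and 8.84, 8.85, 8.83, 8.81 and 8.74 in knockout lungs 1 to 5. Every knockout lung was above every control lung, though by a small margin. Group means were 8.61 ± 0.12 and 8.81 ± 0.04 (SD, n = 5 per group), a change of 0.20 ± 0.06 (SE) that did not pass adjustment over all genes (limma adjusted p = 0.0963, and 0.111 with the replicate block).

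The difference between these relatives was tested directly, as Foxa1 minus Foxa2 in each lung, which asks whether the genes changed by unequal amounts and not which is more abundant. This difference was 0.89, 1.40, 0.97, 1.16 and 1.31 in control lungs and 0.43, 0.39, 0.40, 0.56 and 0.86 in knockout lungs 1 to 5. All knockout values lay below all control values. The mean fell by 0.62 ± 0.13 (SE), so the Foxa1 to Foxa2 ratio stood at 65.1% of its control value (exact permutation p = 0.00794, two-sided; 0.0397 adjusted over 5 pairs of related factors). It was lower in 5 of 5 same-numbered pairs, which follows from groups that do not overlap, whatever the pairing. Exact sign flips of these pairs cannot give a p under 0.0625. Leaving out control 1, 2, 3 or 5 ended the call (adjusted exact p = 0.0794 in each case), with differences from -0.68 to -0.55. All knockout values still lay below the control values that remained. Leaving out control 4 or any 1 knockout kept the call (adjusted exact p = 0.0397 in each case).

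Foxa3, the remaining FOXA gene, best known from liver and airway secretory cells, rose by 0.20 ± 0.05 (SE), from 6.95 ± 0.06 to 7.15 ± 0.05 (SD, n = 5 per group; limma adjusted p = 0.0408, and 0.066 with the replicate block).

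To let the start regions of the factors that were lower be set beside that of Foxa2, windows of 300 bases around a transcript start, as RefSeq gives them, are shown for these 3 genes (GRCm38.p6). RefSeq windows were matched for 7 of the 10 factors, 11 windows in all. Capitals mark a forkhead motif, TGTTTAC, and a SOX motif, AACAAAG, each read on both strands. The Foxa1 window lies at chr12:57546062-57546361 on the minus strand, the Foxa2 window shown at chr2:148046920-148047219 on the minus strand, and the Sox2 window at chr3:34649745-34650044 on the plus strand. Foxa2 also had windows at chr2:148045415-148045714 and chr2:148045899-148046198, which are not shown and hold neither motif.
Foxa1: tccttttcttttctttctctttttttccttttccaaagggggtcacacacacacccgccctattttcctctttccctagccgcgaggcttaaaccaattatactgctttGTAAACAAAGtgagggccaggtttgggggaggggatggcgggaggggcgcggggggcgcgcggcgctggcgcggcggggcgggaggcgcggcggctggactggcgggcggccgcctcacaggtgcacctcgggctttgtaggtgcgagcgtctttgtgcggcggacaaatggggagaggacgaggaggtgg
Foxa2: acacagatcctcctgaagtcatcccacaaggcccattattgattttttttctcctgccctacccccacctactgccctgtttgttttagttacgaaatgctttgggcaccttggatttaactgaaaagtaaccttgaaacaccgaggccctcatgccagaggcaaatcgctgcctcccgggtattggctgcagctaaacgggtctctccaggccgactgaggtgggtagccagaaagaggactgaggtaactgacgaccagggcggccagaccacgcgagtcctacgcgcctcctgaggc
Sox2: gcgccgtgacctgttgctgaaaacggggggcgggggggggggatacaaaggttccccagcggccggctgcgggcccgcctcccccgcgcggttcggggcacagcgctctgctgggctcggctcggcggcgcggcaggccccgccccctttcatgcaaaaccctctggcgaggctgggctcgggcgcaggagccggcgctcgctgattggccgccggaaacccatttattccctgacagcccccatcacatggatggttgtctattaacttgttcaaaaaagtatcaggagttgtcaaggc
The Foxa1 window holds a forkhead match that begins at position -141 from the start and overlaps a SOX match; neither motif is in the Foxa2 window shown or the Sox2 window. Among the 11 windows 1 held the forkhead motif and 3 the SOX motif, where 3.65% and 5.85% of all 32851 RefSeq windows of that length did. The matches describe letters only, and no binding was measured here.

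Sox2, the marker of proximal epithelium, had the greatest difference among the 10 factors. It was 7.86, 7.60, 7.64, 7.82 and 8.24 in control lungs and 6.78, 6.95, 7.12, 7.55 and 7.56 in knockout lungs 1 to 5. Knockouts 4 and 5 came close to controls 2 and 3, and knockouts 1 to 3 lay well below all controls. Control lungs averaged 7.83 ± 0.25 and knockout lungs 7.19 ± 0.35 (SD, n = 5 per group), a change of -0.64 ± 0.16 (SE), or 64.1% of the control level. This missed the threshold without the block (limma adjusted p = 0.0553) and passed it with the replicate block (adjusted p = 0.00936). Same-numbered pairs differed by -1.07 to -0.28. That 5 of 5 pairs were lower follows from groups that do not overlap, whatever the pairing. In the unblocked fit Sox2 also passed without knockout 4 (adjusted p = 0.0385, in a fit that called 2.62% of all genes, 1.31% lower and 1.31% higher) or without knockout 5 (0.0262, in a fit that called 3.9%, 1.77% lower and 2.13% higher). In the blocked fit it passed whichever pair was left out (0.00834 to 0.0358).

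Sox9, the marker of distal tips, spread more within groups than it differed between them. It was 8.21, 8.49, 8.33, 9.07 and 8.86 in control lungs and 7.88, 8.28, 8.31, 8.98 and 9.01 in knockout lungs 1 to 5. In both groups the lungs numbered 4 and 5 lay above those numbered 1 to 3, by 0.62 among controls and 0.83 among knockouts. The change was -0.10 ± 0.22 (SE; limma adjusted p = 0.919), and its 95% interval, from -0.59 to 0.39, leaves room for a change as large as that of Foxa1. With the replicate block the interval narrowed to -0.26 to 0.06 (adjusted p = 0.528). The pooled SD within groups was 0.43 for Sox9, higher than that of 99.4% of all genes.

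The Sox9 minus Sox2 difference was 0.35, 0.89, 0.69, 1.25 and 0.61 in control lungs and 1.10, 1.33, 1.19, 1.43 and 1.45 in knockout lungs 1 to 5. Control 4 reached into the knockout range and the other controls did not. The mean difference went from 0.76 ± 0.34 to 1.30 ± 0.15 (SD, n = 5 per group), a shift of 0.54 ± 0.17 (SE; exact permutation p = 0.0238, two-sided; 0.0595 adjusted over the 5 pairs). Without control 4 the shift was 0.67 and passed (adjusted exact p = 0.0397), and it also passed when lungs were exchanged only within numbers 1 to 3 and within 4 and 5 (0.0417). It was higher in 5 of 5 same-numbered pairs.

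**Figure D2:**
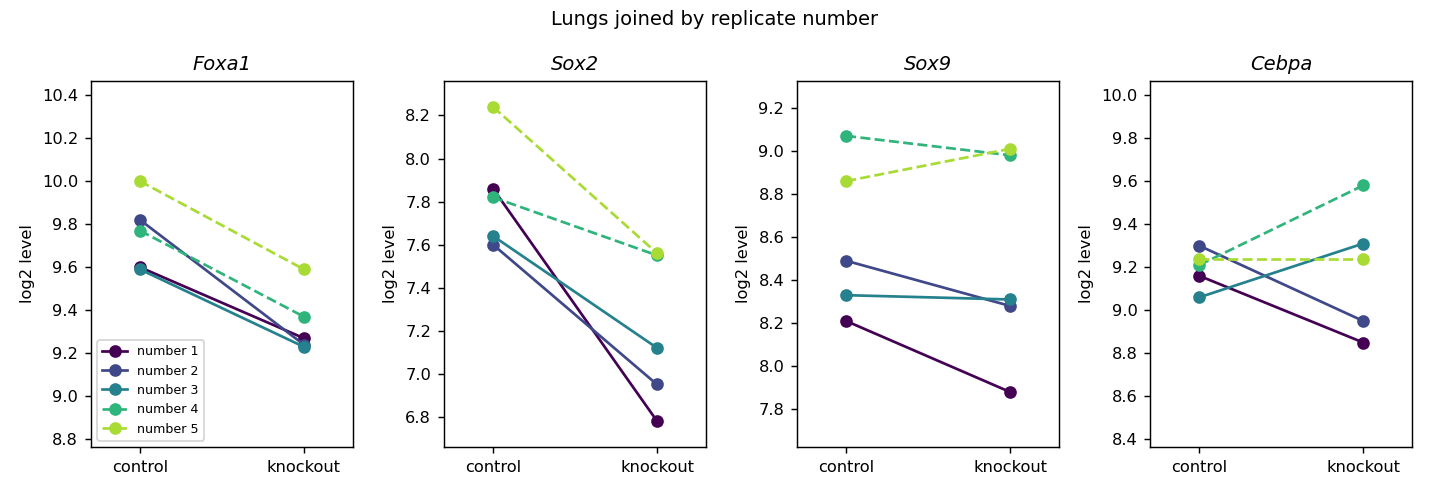
Log2 levels of Foxa1, Sox2, Sox9 and Cebpa in control and knockout lungs, with lungs of the same replicate number joined (numbers 1 to 3 solid, 4 and 5 dashed). Foxa1 and Sox2 go down along all 5 lines, Sox9 separates numbers 4 and 5 from 1 to 3 in both groups, and the lines of Cebpa cross.

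SOX9 is also made by cartilage and SOX2 by oesophagus and glia, tissues that can remain on a dissected lung, so their markers were read beside these results. Of 18 measured cartilage genes 17 were not called, Chad alone fell, and Col2a1, the main cartilage collagen and a SOX9 target, lay between 7.42 and 7.60 in all 10 lungs. The mean cartilage level was 7.04 to 7.25 in controls and 6.98 to 7.13 in knockouts, and the part of cartilage in the Sox9 values was not tested. Of 9 measured squamous genes of the oesophagus, Krt13 rose by 0.74 ± 0.09 (SE; adjusted p = 0.000733) from a control mean of 5.76, under the 20th percentile of all values, and Ivl stood at 0.75 ± 0.23 (adjusted p = 0.13). That list averaged 6.25 to 6.34 in controls and 6.54 to 6.63 in knockouts, with 2 of the 9 genes under the 20th percentile on average. Of 8 measured genes of glia and nerve, S100b was called higher (0.19, adjusted p = 0.0446, and 0.0825 with the block) with both means (5.50 and 5.69) under the 20th percentile, and Erbb3 stood at 0.20 (adjusted p = 0.186). The part of oesophagus or nerve in the Sox2 values was not tested. The thyroid, the other organ of the foregut that makes NKX2-1, had 0 of 7 measured genes called by limma, with 0 also at an unadjusted p under 0.05; Slc5a5 stood at 0.09 and Iyd at -0.09.

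Nkx2-1, at the head of this network, was nearly level between the groups. It was 11.03, 10.96, 10.99, 10.94 and 11.13 in control lungs and 10.93, 10.93, 10.92, 10.93 and 11.13 in knockout lungs 1 to 5. The groups overlapped, and number 5 was the highest in each. The means were 11.01 ± 0.07 and 10.97 ± 0.09 (SD, n = 5 per group), a change of -0.04 ± 0.06 (SE; limma adjusted p = 0.825) with a 95% interval from -0.16 to 0.08. The interval does not reach the size of the Foxa1 or the Sox2 difference.

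Gata6 was 9.98, 10.05, 10.15, 10.17 and 10.28 in control lungs and 9.94, 10.03, 10.10, 10.26 and 10.21 in knockout lungs 1 to 5. The groups overlapped through their whole range, and numbers 4 and 5 were the highest in both. Its change was -0.02 ± 0.07 (SE), with a 95% interval from -0.18 to 0.14 (limma adjusted p = 0.961). Gata5 and Gata4, relatives that act mainly outside the lung epithelium, were not called; Gata5 stood at -0.16 ± 0.15 (SE, adjusted p = 0.734).

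Cebpa had the same mean in both groups but a wider spread in the knockout. It was 9.16, 9.30, 9.06, 9.21 and 9.24 in control lungs and 8.85, 8.95, 9.31, 9.58 and 9.24 in knockout lungs 1 to 5. Knockouts 1 and 2 lay below every control lung and knockouts 3 and 4 above. The means were 9.19 ± 0.09 and 9.19 ± 0.29 (SD, n = 5 per group), with a change of -0.005 and a 95% interval from -0.26 to 0.25 (limma adjusted p = 0.994). Among its relatives, the stress-inducible Cebpb stood at 0.11 ± 0.05 and Cebpd at -0.14 ± 0.05 (SE); neither was called (adjusted p = 0.389 and 0.239).

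The 3 FOXP repressors all had positive differences, and none passed. Foxp4 was 8.999, 9.04, 8.74, 8.82 and 8.85 in control lungs and 9.18, 9.01, 9.19, 9.07 and 9.11 in knockout lungs 1 to 5. Only knockout 2 fell within the control range. Its change was 0.22 ± 0.07 (SE; limma adjusted p = 0.103, and 0.116 with the replicate block), and it was higher in 4 of 5 pairs. Foxp1 was 10.66, 10.56, 10.73, 10.68 and 10.56 in control lungs and 10.59, 10.79, 10.91, 10.74 and 10.70 in knockout lungs 1 to 5, a change of 0.11 ± 0.06 (SE; adjusted p = 0.524). The groups overlapped at knockouts 1 and 5.

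Foxp2, which is concentrated in distal epithelium, was 8.97, 9.14, 9.03, 8.80 and 9.05 in control lungs and 9.39, 9.19, 9.13, 8.67 and 9.57 in knockout lungs 1 to 5. Knockout 4 was the lowest of all 10 lungs and knockout 5 the highest. The change was 0.19 ± 0.14 (SE; limma adjusted p = 0.626), with a 95% interval from -0.11 to 0.49. The shifts of the FOXP genes against each other did not pass the test: Foxp1 minus Foxp2 by -0.09 ± 0.19, Foxp1 minus Foxp4 by -0.12 ± 0.10 and Foxp2 minus Foxp4 by -0.03 ± 0.16 (SE; exact permutation p of 0.302 or more, adjusted 0.503 or more). Their standard errors were of about the size of the changes of the genes themselves. Foxp3, the family member of regulatory T cells, stood at 0.03 (adjusted p = 0.914).

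**Figure D3:**
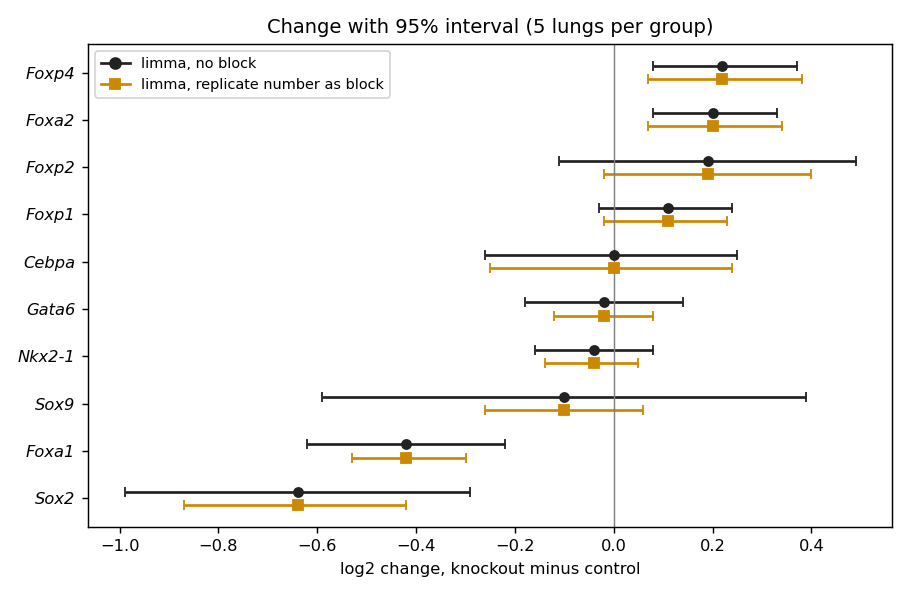
Change of each factor (log2, knockout minus control) with its 95% interval from limma without a block (circles) and with the replicate number as a block (squares), 5 lungs per group. Foxa1 and Sox2 lie below 0 in both fits, Foxa2 and Foxp4 above 0 though not called after adjustment, and the interval of Sox9 is much narrower with the block.

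The labels name no batch for the replicate numbers, but lungs 4 and 5 did not overlap with lungs 1 to 3 in some factors. In knockouts this held for Foxa1, Foxa2, Gata6, Sox9 and Sox2, beside 32.6% of all genes. In controls it held for Gata6 and Sox9, a smaller share of the 10 factors than the 34.1% over all genes. Within numbers 1 to 3 the change of Foxa1 was -0.42 (limma adjusted p = 0.0242) and that of Sox2 -0.75 (0.00733), in a fit that called 2.5% of all genes, 1.05% lower and 1.45% higher. Within numbers 4 and 5 they were -0.41 and -0.48 (adjusted p = 0.466 and 0.477), in a fit of 2 lungs per group that called 0.0112% of all genes, 0.00558% in each direction. With the sets as a block both passed (adjusted p = 0.00326 and 0.00248), beside 5.08% of all genes, 2.54% in each direction.

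Genes that followed Foxa1 most closely across the 10 lungs were found by the smallest root mean square difference after each gene was centred on its control mean. They were Myb, a regulator of multiciliated and other progenitors, at 0.071, Slamf9, a leukocyte surface receptor, at 0.093 and Trp53bp2, a p53-binding protein, at 0.105, where the median over all genes was 0.346. The likeness was chosen from the same arrays and carries no test. Centring on the control mean keeps the group change, so the genes nearest a factor had to change by a similar amount. Myb fell by 0.46 ± 0.09 (SE, limma adjusted p = 0.0183), Slamf9 by 0.41 ± 0.06 (0.00269) and Trp53bp2 by 0.37 ± 0.09 (0.0457). For Sox2 the nearest were Cckar, the cholecystokinin A receptor, at 0.175, Tinag at 0.216 and Adam28, a membrane protease, at 0.218, with a median over all genes of 0.541.

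Among 46 other measured regulators of the same lineages, 2 rose and 2 fell, with a median change of -0.03. Etv5, an FGF-induced factor of distal tips and AT2 cells, rose by 0.61 ± 0.07 (SE), and Foxa3 rose as given above. Ehf, an epithelial ETS factor, fell by 0.44 ± 0.07 and Myb by 0.46 ± 0.09 (limma adjusted p of the 4 genes from 0.000434 to 0.0408). Foxj1, the master factor of ciliated cells, stood at 0.12 (adjusted p = 0.371) and Trp63, of basal cells, at -0.05 (0.791). With the block Klf5 rose (0.23, adjusted p = 0.0404) and Mcidas fell (-0.30, 0.0298), and Foxa3 was no longer called.

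Of 22 measured signalling genes upstream of these factors, 0 rose and 1 fell, with a median of -0.05. Fgfr2, the epithelial receptor of FGF10, fell by 0.29 ± 0.06 (SE; limma adjusted p = 0.0178), and Hhip, a hedgehog-binding antagonist, stood at -0.21 ± 0.06 (adjusted p = 0.0843). With the replicate block Fgf18 also fell (-0.44, adjusted p = 0.0222), and without control 1 none was called, while 2 were without control 5 or knockout 5. Shh itself, whose Cre allele both groups carry by their labels, stood at -0.05 (adjusted p = 0.891).

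The genes of the cell types under these factors were read next, as lists chosen with earlier results of these arrays known. Of 17 measured AT2 genes 2 rose and 0 fell, with a median of 0.07. Etv5 rose as above and Lpcat1, of surfactant phospholipid synthesis, by 0.34 ± 0.05 (SE; limma adjusted p = 0.00132). The classical NKX2-1 targets among them were not called: Sftpc stood at -0.02, Sftpb at -0.01, Abca3 at -0.08, Sftpd at 0.15 and Sftpa1 at -0.48 (adjusted p = 0.932, 0.985, 0.564, 0.761 and 0.0899). Sftpc lay close to the highest value on the arrays (13.61), and whether that limits the change it can show was not tested. Without knockout 5, 4 genes of this list were called, and 3 without knockout 4.

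Of 18 measured AT1 genes 1 rose and 4 fell, with a median of 0.04. Col4a3 fell by 0.70 ± 0.07 (SE) and its partner chain Col4a4, both of type IV collagen, fell by 0.50 ± 0.08. Pdpn, a membrane glycoprotein, fell by 0.52 ± 0.10, while Gprc5a rose by 0.34 ± 0.05 (limma adjusted p of these 4 genes from 0.000169 to 0.00974). With the block Rtkn2 rose too (0.40, adjusted p = 0.00862). The AT1 markers Ager, Hopx and Aqp5 were not called and stood at 0.00, 0.10 and 0.47 (limma adjusted p = 0.992, 0.734 and 0.115). Of 14 measured genes of distal tip progenitors 1 rose, Etv5, and 1 fell, Cpm (-0.53 ± 0.08, SE; adjusted p = 0.00409), with a median of 0.05; Sox9, Gata6 and Foxp2 belong to that list.

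Club cell genes stood lowest. Of 18 measured, 8 fell and 2 rose, with a median of -0.34. Retnla, a secreted resistin-like protein, had a change of -2.27 ± 0.17 (SE), Aldh1a7, an aldehyde dehydrogenase, of -0.58 ± 0.06, Chad of -1.26 ± 0.15 and Gabrp of -1.13 ± 0.14 (limma adjusted p from 1.75e-05 to 0.000779). Retnla, Pon1, Chad and Gabrp were in the list because they were known to be lower in these arrays, and without them 4 of 14 fell and 2 rose, with a median of -0.20. Scgb1a1, the defining club cell gene, stood at -0.15 (adjusted p = 0.469). With the block Bpifa1 was called higher (0.57, adjusted p = 0.0479) and Foxa3 was not. Both Bpifa1 means, 4.57 in control and 5.14 in knockout lungs, lay under 6.11, the percentile floor given above. The mean level of the 14 genes was 9.13 to 9.41 in controls and 8.89 to 9.20 in knockouts, which overlap; the part of club cells in the Sox2 result was not tested.

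Of 22 measured ciliated cell genes 0 rose and 4 fell, with a median of -0.05. Changes of the axonemal dynein genes were -0.36 for Dnah11, -0.27 for Dnah9 and -0.26 for Dnaic2, and Myb is in this list too (limma adjusted p from 0.000349 to 0.0287). With the replicate block 6 fell, Mcidas (-0.30, adjusted p = 0.0298) and Spag17 (-0.26, 0.0491) being added. Of 7 measured basal cell genes Krt15 and Aqp3 rose by 1.75 ± 0.15 and 0.68 ± 0.11 (SE) and Pdpn fell (adjusted p from 3.53e-05 to 0.00974). Of 10 measured neuroendocrine genes Ddc fell by 0.47 (adjusted p = 0.0355), and Pcsk1 was called higher (0.43, adjusted p = 0.0265) from a control mean of 5.92, under the 20th percentile of all values. Scg2 also fell with the block (-0.24, adjusted p = 0.0392).

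**Figure D4:**
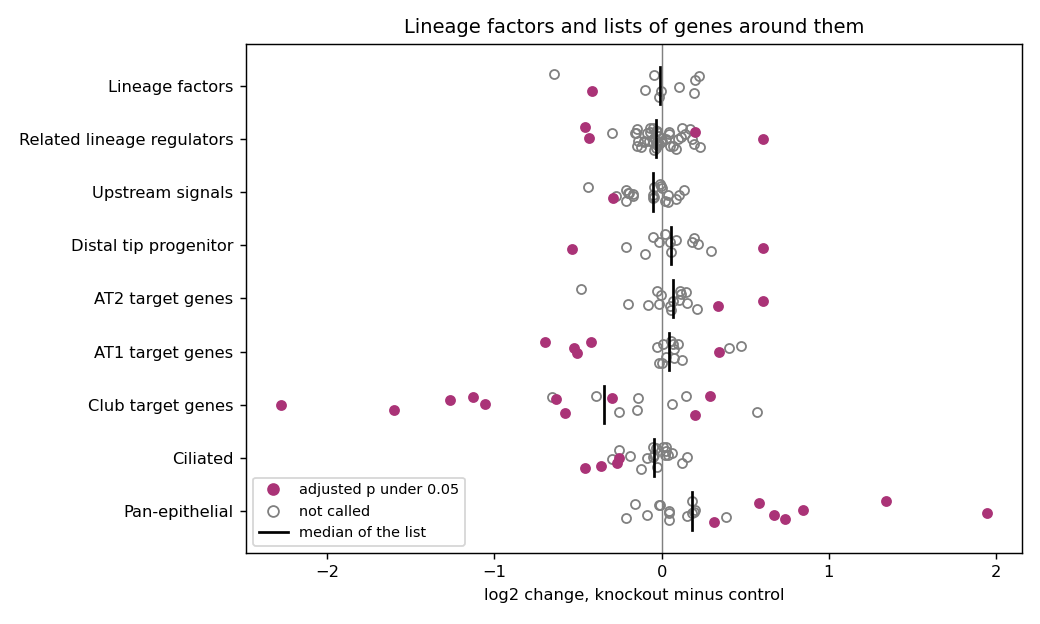
Change (log2, knockout minus control) of each measured gene of the lineage factors and of 8 lists around them; filled points passed an adjusted p of 0.05, open points did not, and the black bar is the median of the list. The lineage factors centre on 0 with Foxa1 and Sox2 to the left, the club genes lie mostly below 0 (median -0.34) and the pan-epithelial genes mostly above (median 0.18).

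Of 21 measured genes shared by many epithelia 7 rose and 0 fell, with a median of 0.18; with the block Tjp3, of tight junctions, fell too (-0.21, adjusted p = 0.0338). The keratins Krt18, Krt8 and Krt19 rose by 1.34 ± 0.07, 0.74 ± 0.06 and 0.67 ± 0.10 (SE) and the claudin Cldn4 by 1.95 ± 0.32 (limma adjusted p from 1.6e-06 to 0.0052). The adhesion molecule Epcam stood at 0.04 ± 0.06 (adjusted p = 0.85) and E-cadherin, Cdh1, at 0.18 ± 0.05 (0.0517). The list averaged 9.05 to 9.18 in controls and 9.36 to 9.56 in knockouts. Its strongly changed keratins and Cldn4 weigh on that mean, and the part of the amount of epithelium in the Foxa1 and Sox2 results was not tested.

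Several of these factors are also expressed outside the epithelium: Foxp1 and Gata6 in mesenchyme and endothelium, and Cebpa in macrophages. Of 14 fibroblast, 10 smooth muscle, 15 endothelial and 15 leukocyte genes measured, limma called 0. Before adjustment 0, 1, 0 and 6 of them had a p under 0.05, beside 13.5% of all genes. Their medians were -0.05, -0.08, 0.00 and -0.13. Mfap4 and Col3a1 of fibroblasts stood at -0.08 and -0.09, Cnn1 and Des of smooth muscle at -0.41 and -0.10, Car4 and Esam of endothelium at 0.32 and 0.09, and Laptm5 and Tyrobp of leukocytes at -0.27 and -0.21. With the block Cnn1 (adjusted p = 0.0275), Car4 (0.0172), Laptm5 (0.0227) and Ccr2 (-0.33, 0.0282) were called. Of 9 mesothelial genes Krt19 and Msln rose by 0.67 and 0.46 (adjusted p = 0.00251 and 0.0103), with Upk3b falling as well with the block (-0.26, 0.0271), and of 4 measured erythroid genes 0 were called (0 at an unadjusted p under 0.05; Slc4a1 0.22, called with the block at 0.0461, and Gata1 -0.05). The leukocyte list averaged 8.21 to 8.28 in controls and 8.04 to 8.20 in knockouts; its part in the values of Cebpa and Slamf9 was not tested.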

How the data were processed

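The authors deposited log2 levels, 1 per probe set. The submitters' processing notes name oligo, RMA and limma. Tool versions, annotation build and any row filter: not given in the sources used here. RMA quantile-normalizes the arrays, so a shift shared by most genes would not be seen. The scanner files were not used here.

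Genes were assigned from the platform annotation: 18922 of 24888 had 1 symbol, 1343 several and 4623 none. A gene took its probe set with the highest mean, which gave 17919 genes. No 2 samples held identical values (correlations from 0.9838 to 0.9945). Control and knockout were compared with limma 3.58.1 in R 4.3.3 (two-sided, Benjamini-Hochberg over all genes, threshold 0.05); the number of arrays limits the precision, and the median SE was 0.066. Differences between related factors were tested by exact permutation over 252 assignments.

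Both groups carry numbers 1 to 5. Each lung was centred on its group mean; the correlation within same-numbered pairs was 0.319, 0.154, 0.183, 0.485 and 0.36, while pairs of unequal number had a median of -0.0829 and a maximum of 0.33, so the numbers were taken to pair the lungs; this comes from the data, not the labels, and a difference of numbers 4 and 5 from 1 to 3 could also raise these values.

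The factors and lists were chosen with earlier results of these data known, so no count over them is independent support. The text names the 10 factors, Hdac3, from each list up to 4 called genes of smallest p (2 genes where fewer than 2 were called), and the 3 genes most like each factor called; Sox2's nearest genes and others outside this rule (defining markers, family relatives and calls made only with the block) were added after their values were seen. Windows around transcript starts are RefSeq's.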

Additional observations from a re-analysis of the deposited data

Results flagged for a closer look

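In knockout lung 5 the level of Nkx2-1 was 11.13, while the other 4 knockouts lay between 10.92 and 10.93; its gap to them took most of the group's range. In the same lung Foxa2 was 8.74, the lowest of its group, where the other 4 lay between 8.81 and 8.85. These were the 2 values, both of 1 lung, that stood apart by Dixon's test among 20 gene and group combinations of 5 lungs, where chance marks about 1 in 20.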

How the results depend on the processing

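Settings changed the calls more than the sizes. Over the alternatives run, Foxa1 ranged from -0.48 to -0.35 and Sox2 from -0.75 to -0.48, and neither changed direction; Nkx2-1, Foxa2, Foxp1, Foxp2 and Foxp4 also kept their direction and were called in no setting. Of lineage factors, 1 was called in the unblocked fit. With the replicate block, with the sets of numbers as a block and within numbers 1 to 3, 2 were called. The same 2 calls came in fits chosen after seeing the data, with the replicate block without any 1 number. There were 0 within numbers 4 and 5, with values floored and by exact permutation. Adjusted over all genes, the smallest exact permutation p of 0.00794 became 0.155. Leaving out 1 lung gave 0 to 2. All genes called were 559, against 846 with the replicate block, 910 with sets as block, 2 within numbers 4 and 5, 0 by exact permutation and 393 to 699 without 1 lung (2421 at an unadjusted exact p under 0.05). Exact permutation and numbers 4 and 5 alone gave 0 calls in the 5 lists of regulators, signals, AT2, AT1 and club genes. Related regulators had 4 calls, 2 among genes above the median level and 2 to 4 without 1 lung. Upstream signals had 1 call, 3 floored, 2 with the replicate block, 5 with sets as block, 3 with a trended robust prior and 0 to 2 without 1 lung. AT2 genes had 2 to 4 calls without 1 lung, and club genes 6 of 10 calls without the 4 genes known to fall. Paralog differences had 1 call, and 0 with pairs kept as a replicate block, whose smallest p is 0.0625. There were 2 with exchanges within sets and 0 to 2 without 1 lung. Within either set of numbers alone the count was 0, but so few lungs give too few assignments for any pair to pass. Among the factors, signs turned only for Cebpa, Gata6 and Sox9, whose changes in the unblocked fit were -0.005, -0.02 and -0.10. Cebpa stood at -0.13 within numbers 1 to 3 and at 0.19 within numbers 4 and 5. With the replicate block it stood at 0.07 without number 1 and 0.08 without number 2. Within numbers 4 and 5 Gata6 stood at 0.01 and Sox9 at 0.03. Without 1 lung, Cebpa ran from -0.10 to 0.08, Gata6 from -0.06 to 0.02, Sox9 from -0.23 to 0.05, Foxp1 minus Foxp2 from -0.22 to 0.02 and Foxp2 minus Foxp4 from -0.13 to 0.09. The cause of these shifts was not tested. Sox2 lies under the median level and has no value in that filter.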
